A study of Mus musculus with 8 samples.

Results

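The genes described here are 10 that mark the principal cell of the kidney collecting duct and carry its sodium uptake: Scnn1a, Scnn1b, Scnn1g, Nr3c2, Hsd11b2, Fxyd4, Gata3, Elf5, Tfcp2l1 and Npnt. They were taken by name, and all 10 were found among the 49315 Ensembl gene IDs of the deposited count table. Transcripts were counted in mouse kidney tissue of 2 genotypes, with 4 libraries each: Control, and Conditional Knockout of Kdm1a, the gene of the histone demethylase LSD1. A conditional allele is lost only where a recombinase is active. The RNA came from frozen tissue, and the extraction text calls the controls wild type. The labels do not state the recombinase line, the strain, the age or the sex, nor whether the libraries of a group came from separate animals, so the p values below measure the spread between these libraries. The comparison asks how the principal cell genes differ between the genotypes.

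Principal cells take up sodium through the epithelial sodium channel ENaC, which is built from an alpha, a beta and a gamma subunit encoded by Scnn1a, Scnn1b and Scnn1g. The hormone aldosterone binds the mineralocorticoid receptor (Nr3c2) and raises channel activity, and the enzyme 11-beta-hydroxysteroid dehydrogenase type 2 (Hsd11b2) inactivates glucocorticoids that would otherwise occupy that receptor. Sodium then leaves the cell through the sodium pump on the blood side. The collecting duct descends from the ureteric bud, in whose development Gata3 acts, and Tfcp2l1 and Elf5 are transcription factors of the collecting duct.

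The 3 channel subunits are related proteins whose tails carry a PY motif, the site bound by the ubiquitin ligase Nedd4-2 (Nedd4l), which removes the channel from the membrane. The coding stretches are shown because the counts below separate the subunits, and reads can do so only where the transcripts differ. Each is 45 bases long, on the plus strand of GRCm38 and within the last exon of the annotated transcript. Capitals mark the 5 codons of the motif (proline, proline, proline, any residue, tyrosine), which a codon search found at 1 place in each coding sequence.
Scnn1a, chr6:125343978-125344022: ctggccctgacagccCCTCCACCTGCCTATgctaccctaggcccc
Scnn1b, chr7:121917967-121918011: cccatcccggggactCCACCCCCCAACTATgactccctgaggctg
Scnn1g, chr7:121767451-121767495: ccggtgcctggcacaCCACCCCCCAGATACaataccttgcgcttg
The longest run of bases shared by annotated transcripts of different subunits was 20, between Scnn1a and Scnn1g. It was 18 between Scnn1b and Scnn1g and 13 between Scnn1a and Scnn1b.

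Scnn1g (chr7:121734479-121768475) and Scnn1b (chr7:121865038-121918514) lie on the same strand, 96562 bases apart, whereas Scnn1a is on chromosome 6 (chr6:125320659-125344943). The 250 bases before the start of both neighbours are printed because their transcripts followed a similar pattern over the libraries, as shown further on. That pattern was not particular to them, since Npnt on chromosome 3 followed Scnn1g as closely. Sequences are from RefSeq (GRCm38.p6), plus strand, and capitals mark the letters GATA, the core recognised by Gata3.
Scnn1g, chr7:121734229-121734478: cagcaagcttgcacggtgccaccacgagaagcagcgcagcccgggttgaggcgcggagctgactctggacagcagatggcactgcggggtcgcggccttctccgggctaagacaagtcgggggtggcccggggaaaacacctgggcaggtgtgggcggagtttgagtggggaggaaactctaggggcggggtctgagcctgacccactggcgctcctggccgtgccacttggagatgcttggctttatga
Scnn1b, chr7:121864788-121865037: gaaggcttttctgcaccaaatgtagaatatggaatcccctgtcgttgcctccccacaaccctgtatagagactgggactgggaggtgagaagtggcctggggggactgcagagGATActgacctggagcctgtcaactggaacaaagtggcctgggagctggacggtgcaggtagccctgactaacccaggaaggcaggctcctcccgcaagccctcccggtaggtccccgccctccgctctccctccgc
RefSeq windows of 300 bases around a start were found for 8 members, 10 windows in all. On either strand, GATA occurred in 4 of the 10 windows, against 57.9% of all 32851 windows. These 4 belonged to 3 members (Scnn1b, Gata3 and Elf5). The letters AGAACA, a core of the steroid receptor element, occurred in 0 of the 10 and in 19% of all windows. TGATAA, a longer form that contains GATA, occurred in 0 of the 10 and in 9.05% of all windows.

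Libraries held 19524945 to 28544511 counts, and every member had at least 60 counts in each. Kdm1a itself was at 110, 112, 120 and 110 counts per 1000000 (CPM) in control replicates 1 to 4 and at 94, 95.3, 90.9 and 94.2 CPM in the knockouts. It was lower by 0.27 on the log2 scale (SE 0.05, edgeR adjusted p 0.0194), and the groups did not overlap. These are counts over the whole gene, so any exons outside a deleted stretch are included. They do not show which exons were lost or in what share of the cells, and neither was tested. That call was kept without control replicates 2 or 4 or knockout replicate 3 (edgeR adjusted p 0.00691, 0.0458 and 0.0367) and was lost in the 5 other fits that left out a library (edgeR adjusted p 0.0529 to 0.0765). Y-linked transcripts were present in control replicates 1, 3 and 4 and knockout replicates 2 and 3 only, so the genotypes differ in their mix of sexes. Adrenal cortex genes, led by Cyp21a1, reached a sum of 3186 CPM in knockout replicate 1. Their sum was 341 CPM in knockout replicate 4 and 169 CPM in control replicate 4, against 14.8 to 31.5 CPM in the other libraries. Control replicate 2 and knockout replicate 3 stood apart from their groups in the tubule markers. Thick ascending limb markers summed to 308 CPM in control replicate 2 against 706 to 1334 CPM in the other controls, and to 409 CPM in knockout replicate 3 against 32.2 to 89.4 CPM in the other knockouts. The departure of control replicate 2 was not confined to these markers. Pairs of libraries were compared over all genes by chi-square per degree of freedom, where a larger value means less alike. Control replicate 2 was nearer to every knockout (16.3 to 20.7) than to any other control (31.8 to 56).

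Of the 10 members, 3 passed the test across all genes (edgeR adjusted p under 0.05, termed a call): Scnn1a was lower, and Hsd11b2 and Gata3 were higher. Over all 18485 genes tested, 14.9% were called, 8.27% lower and 6.61% higher. The fitted change was downward for 8 members and upward for 2, and the median log2 fold change was −0.49, against 0.00 over all genes tested. In 0 of the 10 members did all knockouts lie below every control, or all above every control. Of all tested genes, 18.9% had groups that did not overlap in this sense, 9.58% with all knockouts below and 9.29% with all above. In kidney tissue, fewer principal cells and less transcript per cell cannot be told apart.

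**Figure D1:**
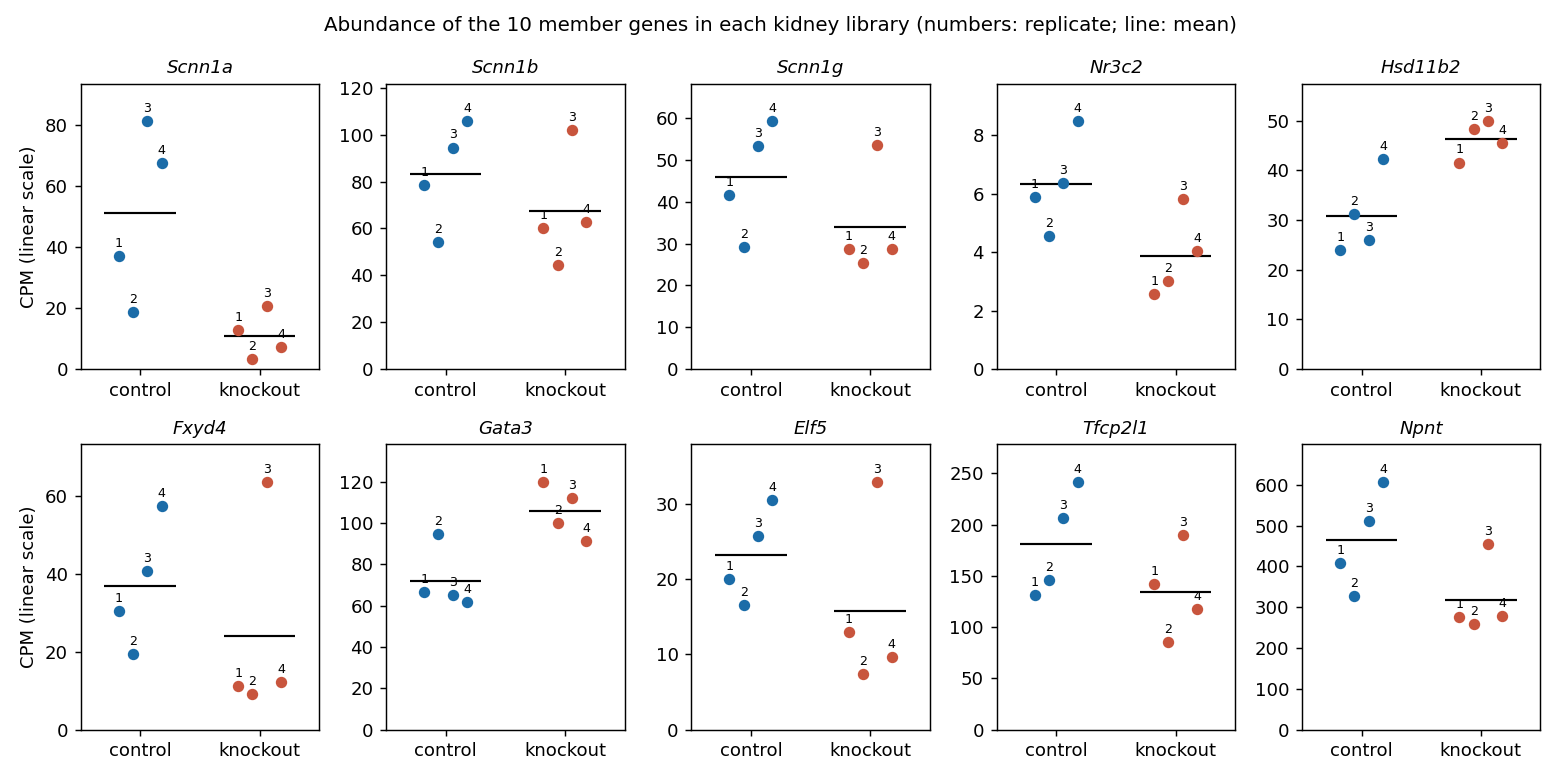
Abundance of each member gene in CPM (linear axis from 0) in every library; points carry the replicate number and horizontal lines are group means. Knockout replicate 3 is the highest knockout in 9 of the 10 panels, and the groups overlap in each panel.

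The alpha subunit showed the largest difference of the 10 members. Scnn1a stood at 37, 18.6, 81.3 and 67.4 CPM in control replicates 1 to 4 and at 12.8, 3.16, 20.7 and 7.09 CPM in knockout replicates 1 to 4. All knockouts lay below 3 of the controls, and only knockout replicate 3 exceeded the lowest control, replicate 2. The mean fell from 51.1 ± 28.5 to 10.9 ± 7.6 CPM (SD, n = 4), to 21.4% of the control level, with a log2 fold change of −2.21 (SE 0.59, edgeR adjusted p 0.0382). The log2 fold change was −1.91 with a covariate of Y-linked transcripts and −2.29 with one of adrenal cortex genes, and was called with neither (edgeR adjusted p 0.0748 and 0.077). Its fold change was at the 1.41 percentile of all genes tested. The direction held in all 19 alternative fits. Among the fits that left out 1 library, edgeR adjusted p stayed under 0.05 without control replicate 2 (0.00723) or knockout replicate 3 (0.0247). It was 0.0775, 0.108 and 0.0956 without control replicates 1, 3 and 4, and 0.0878, 0.0775 and 0.112 without knockout replicates 1, 2 and 4. Within the 5 libraries with Y-linked transcripts the log2 fold change was −2.34 (edgeR adjusted p 0.0724).

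The beta and gamma subunits were not called. Scnn1b was at 78.4, 54.3, 94.6 and 106 CPM in the controls and at 60.2, 44.2, 102 and 62.7 CPM in the knockouts. Its log2 fold change of −0.31 (SE 0.27, edgeR adjusted p 0.435) was about the size of its error. Scnn1g was at 41.7, 29.2, 53.4 and 59.4 CPM in the controls and at 28.6, 25.3, 53.7 and 28.8 CPM in the knockouts, a log2 fold change of −0.43 (SE 0.28, edgeR adjusted p 0.297). For both genes knockout replicate 3 was higher than 3 of the 4 controls, and the lowest library of all was knockout replicate 2. Without knockout replicate 3 their log2 fold changes were −0.56 and −0.72 (edgeR adjusted p 0.109 and 0.0557). Cog7, a Golgi complex gene, overlaps Scnn1b on the opposite strand and had 642 to 1174 counts per library, and strand handling of the counts is not given in the sources used here.

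**Figure D2:**
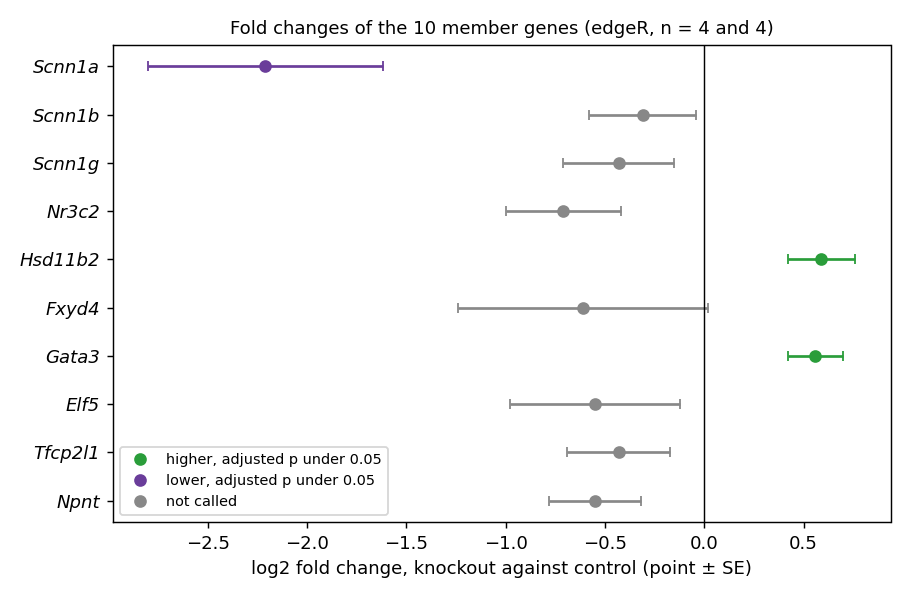
Log2 fold changes of the 10 members, knockout against control, with standard errors derived from the F statistic of the edgeR test (n = 4 each). Scnn1a at −2.21 lies apart from the other members, which range from −0.71 to 0.59.

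Because ratios of genes within a library do not depend on how libraries are scaled, the subunits were also set against each other. The log2 ratio of Scnn1b to Scnn1a counts was 1.08, 1.54, 0.22 and 0.65 in the controls and 2.23, 3.80, 2.30 and 3.14 in the knockouts. The groups did not overlap, and the ratio was 3.98-fold higher in the knockouts (difference 1.99 on the log2 scale, exact two-sided permutation p = 0.0286, 0.0381 after adjustment over 4 ratios). With 4 against 4 libraries 0.0286 is the smallest p this test can give. The ratio of Scnn1g to Scnn1a also separated the groups, with a mean log2 ratio of 0.01 ± 0.53 in the controls and 1.89 ± 0.82 in the knockouts (SD, n = 4, exact permutation p = 0.0286, adjusted 0.0381). In knockout replicate 3, where beta and gamma were within the control range, both ratios still lay above every control, at 2.30 and 1.38. Per base of exon, beta transcript was 1.83 to 4.57 times as abundant as alpha in the controls and 7.35 to 21.8 times in the knockouts.

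The ratio of the neighbours Scnn1g and Scnn1b, by contrast, hardly varied. Its log2 value was −0.91, −0.90, −0.82 and −0.83 in the controls and −1.07, −0.81, −0.92 and −1.12 in the knockouts. The difference of the means was −0.12, smaller than the spread of the knockouts from −1.12 to −0.81 (exact permutation p = 0.229, adjusted 0.229). Without knockout replicate 2 it was −0.17, with an adjusted exact permutation p of 0.0286. On the scale of counts per kilobase of exon the control levels were 31.6 ± 8.47 for beta, 15.4 ± 4.47 for gamma and 12.4 ± 6.89 CPM per kilobase for alpha (SD, n = 4). Gamma and alpha did not differ beyond their spread in the controls. In the knockouts the order was 25.5 ± 9.29, 11.4 ± 4.41 and 2.65 ± 1.84, so the alpha transcript was the least abundant.

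**Figure D3:**
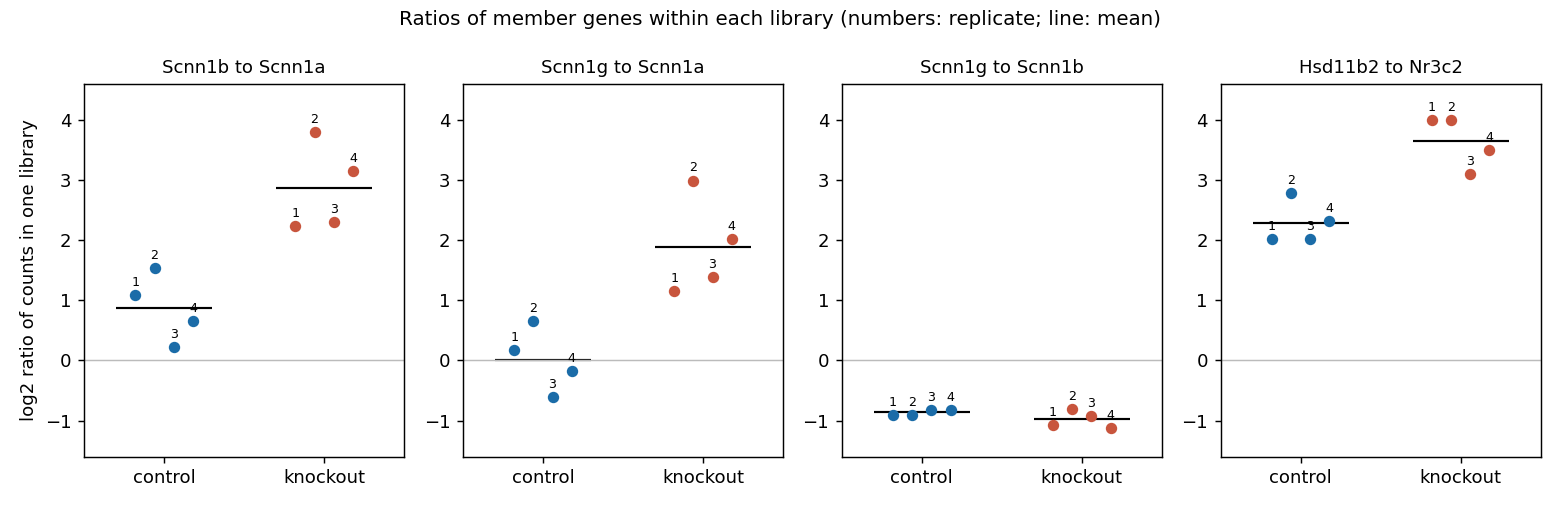
Log2 ratio of counts of paired member genes within each library; points carry the replicate number and lines are group means. The knockouts lie above all controls for both ratios to Scnn1a and for Hsd11b2 to Nr3c2, whereas Scnn1g to Scnn1b stays between −1.12 and −0.81 in all libraries.

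Of the genes of aldosterone reception, Hsd11b2 was called higher and Nr3c2 was not called. Hsd11b2 (chr8:105518755-105523988) was at 23.9, 31.3, 26 and 42.4 CPM in the controls and at 41.6, 48.3, 50 and 45.6 CPM in the knockouts. The knockouts were close together and above 3 of the controls, while control replicate 4 exceeded knockout replicate 1. The mean rose from 30.9 ± 8.29 to 46.4 ± 3.66 CPM (SD, n = 4), a log2 fold change of 0.59 (SE 0.17, edgeR adjusted p 0.0459). It was 0.61 with the Y-linked covariate and 0.57 with the adrenal covariate, and was called with neither (edgeR adjusted p 0.0569 and 0.0966). The call remained without control replicates 2 (0.0355) or 4 (0.0222) by edgeR adjusted p. It was lost without control replicates 1 (0.105) or 3 (0.128), and without knockout replicates 1, 2, 3 and 4 (0.0811, 0.105, 0.0676 and 0.104). Within the 5 libraries with Y-linked transcripts the log2 fold change was 0.68 (edgeR adjusted p 0.0935).

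Nr3c2, the receptor gene (chr8:76899442-77245012), was the least abundant member per length. Its level was 5.9, 4.54, 6.38 and 8.5 CPM in the controls and 2.58, 3.01, 5.81 and 4.03 CPM in the knockouts. Only knockout replicate 3 lay above a control, and the log2 fold change of −0.71 (SE 0.29) was not called, with an edgeR adjusted p of 0.115. It was called without control replicate 2 (−0.84, edgeR adjusted p 0.0476) and without knockout replicate 3 (−0.96, edgeR adjusted p 0.0404). The log2 ratio of Hsd11b2 to Nr3c2 counts was 2.01, 2.78, 2.02 and 2.32 in the controls and 4.0, 3.99, 3.10 and 3.49 in the knockouts. The groups did not overlap, and the ratio was 2.58-fold higher in the knockouts (exact permutation p = 0.0286, adjusted 0.0381). For the 3 ratios that differed, the adjusted exact permutation p exceeded 0.05 without control replicate 3, at 0.0571 for Scnn1b to Scnn1a and Hsd11b2 to Nr3c2 and 0.0762 for Scnn1g to Scnn1a.

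Of 18 genes chosen for aldosterone response and channel control, 2 were called, both lower, against 14.9% called over all genes tested, 8.27% lower. The median log2 fold change of the 18 genes was −0.38. Prss8, a membrane protease (prostasin) that activates ENaC, fell from 90.7 ± 36.6 to 35.8 ± 10.1 CPM (log2 fold change −1.34, SE 0.31, edgeR adjusted p 0.0264). Usp2, a deubiquitinase, fell from 60.6 ± 24.4 to 28.9 ± 6.99 CPM (−1.07, SE 0.28, edgeR adjusted p 0.038), with every knockout below every control. Sgk1, the kinase induced by aldosterone that restrains Nedd4l, ranged from 108 to 350 CPM in the controls and from 32.9 to 120 CPM in the knockouts and was not called (−1.06, SE 0.45, edgeR adjusted p 0.126). The ligase gene Nedd4l was at 79.2 ± 11.4 and 54.7 ± 14.6 CPM (−0.53, SE 0.18, edgeR adjusted p 0.0741). Spint2, a protease inhibitor and the most abundant gene of the list, was at 284 ± 48.6 and 190 ± 43.3 CPM (−0.58, SE 0.17, edgeR adjusted p 0.0516), and the kinase Wnk1, next in abundance, was at 188 ± 17.1 and 186 ± 10.1 CPM (−0.01). The number of calls in this list ran from 0 to 8 in fits that left out 1 library, with 0 in 5 of the 8 fits, 8 without control replicate 2 and 6 without knockout replicate 3.

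Fxyd4, which encodes a small protein that modulates the sodium pump in the collecting duct (chr6:117933559-117937692, minus strand), had the widest spread within a genotype. It was at 30.4, 19.3, 40.6 and 57.4 CPM in the controls and at 11.1, 9.24, 63.6 and 12.2 CPM in the knockouts. The other 3 knockouts lay below every control, whereas knockout replicate 3 was the highest of all libraries. The log2 fold change was −0.61 (SE 0.63, edgeR adjusted p 0.509) with all libraries and −1.74 (edgeR adjusted p 0.019) without knockout replicate 3. Aqp2, the vasopressin-regulated water channel, was likewise higher in knockout replicate 3 than in the other knockouts, though not the highest there of all libraries: 305, 218, 792 and 415 CPM in the controls, 508 CPM in knockout replicate 3 and 22.3 to 64.7 CPM in the other knockouts (log2 fold change −1.43, SE 0.90, edgeR adjusted p 0.278). Of 6 genes chosen for water reabsorption, 5 could be tested and 1 was called, against 14.9% called over all genes tested. That gene, Prkar2a, a regulatory subunit of protein kinase A, changed by −0.26 (SE 0.07, edgeR adjusted p 0.0388), and when each library was omitted in turn the call was kept only without control replicate 2. Adcy6, an adenylyl cyclase and the next most abundant gene after Aqp2, was at 141 ± 10.2 and 140 ± 8.82 CPM (−0.02).

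Of 8 genes of the sodium pump and the potassium channels that work with it, 6 were called lower and 1 higher. Over all genes tested, 8.27% were called lower and 6.61% higher. The median log2 fold change of the 8 genes was −1.54. Atp1b1, a subunit of the pump, fell from 862 ± 360 to 260 ± 155 CPM (log2 fold change −1.73, SE 0.45, edgeR adjusted p 0.0371). The pump regulator Fxyd2 fell from 391 ± 191 to 47.6 ± 49.4 CPM (−3.03, SE 0.76, edgeR adjusted p 0.033). Kcnj10 and Kcnj16, which form potassium channels of the blood side, changed by −1.41 and −1.48 (edgeR adjusted p 0.0307 and 0.0275). Kcnma1, the large-conductance potassium channel, rose from 3.55 ± 0.395 to 5.5 ± 0.167 CPM (0.63, SE 0.14, edgeR adjusted p 0.0252). The pump genes and most of these channels are also abundant in other nephron segments, whose markers were lower too. The part of those segments in these changes was not tested. Counts of calls in this list depended on single libraries: it had 7 calls without control replicate 2 or knockout replicate 3 and 0 in each of the other 6 fits of that kind. It had 0 calls with the adrenal covariate and 4 with the Y-linked covariate, while its median log2 fold change was −1.61 and −1.32.

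**Figure D4:**
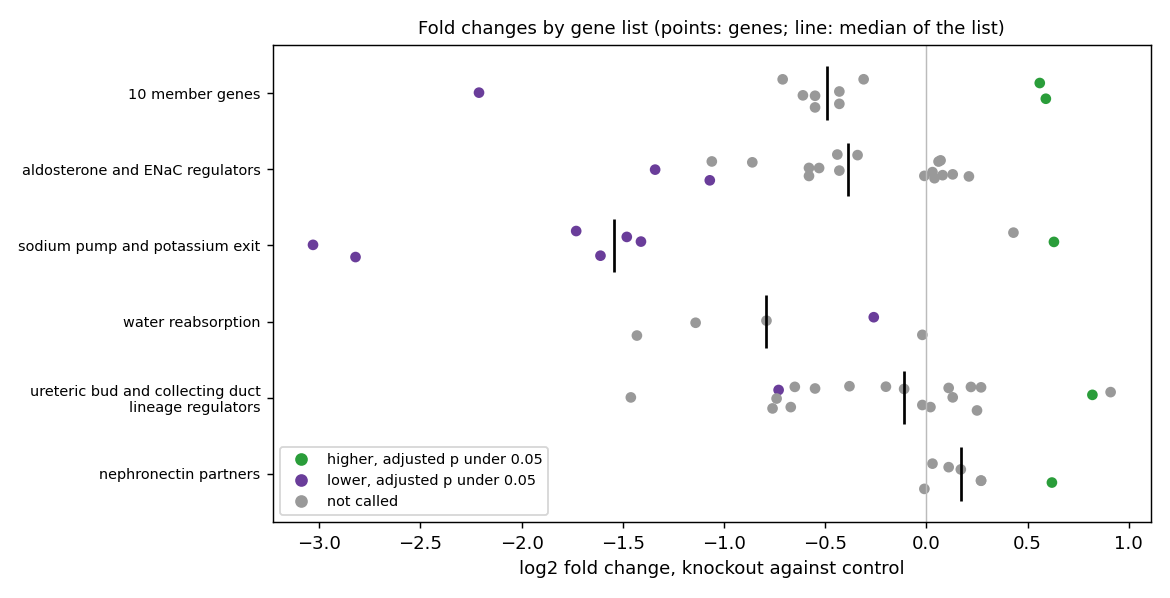
Log2 fold changes of the members and of the genes in 5 related lists (each point a tested gene, vertical lines medians, colours the edgeR call). The median is −0.49 for the members, −1.54 for sodium pump and potassium exit and −0.11 for lineage regulators. It is 0.17 for the list labelled nephronectin partners, which includes Gdnf.

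Among the transcription factors only Gata3 was called, and it was higher. Gata3 (chr2:9857078-9890034, minus strand) was at 66.5, 94.7, 65 and 61.9 CPM in the controls and at 120, 100, 112 and 91.2 CPM in the knockouts. All knockouts exceeded control replicates 1, 3 and 4, and knockout replicate 4 lay just below control replicate 2. The mean rose from 72 ± 15.2 to 106 ± 12.6 CPM (SD, n = 4), a log2 fold change of 0.56 (SE 0.14, edgeR adjusted p 0.0364). With the adrenal covariate it was 0.55 and not called (edgeR adjusted p 0.0832). The value was 0.71 without control replicate 2 (edgeR adjusted p 0.00144) and 0.73 within the 5 libraries with Y-linked transcripts (edgeR adjusted p 0.0157). In the 7 other fits that left out a library the edgeR adjusted p exceeded 0.05: it was 0.0989, 0.107 and 0.0965 without control replicates 1, 3 and 4, and 0.0936, 0.0761, 0.0547 and 0.0732 without knockout replicates 1 to 4.

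Other cells can contribute Gata3 transcript, since sympathetic and chromaffin cells and T cells express it. Markers of adrenal medulla and sympathetic nerve summed to 199 and 158 CPM in knockout replicates 1 and 4 and to 10.3 CPM in knockout replicates 2 and 3, against 15.3 to 49.6 CPM in the controls. The control sums rested largely on Slc18a1, a monoamine transporter, which went against the rest of the list (17.5 ± 9.76 and 2.46 ± 1.55 CPM, log2 fold change −2.82, edgeR adjusted p 0.0222). Gata3 was 100 and 112 CPM in knockout replicates 2 and 3. The part of these cells in the Gata3 result was not tested. The T cell markers Cd3e, Cd3g and Cd3d were each at or under 0.102 CPM in the mean of either group, and Lck made up most of that list's sum (8.49 and 8.47 CPM). The most abundant marker of the medulla list was Chgb. Of the genes that overlap Gata3, 9230102O04Rik on the same strand had 141 to 274 counts per library, against 1362 to 3244 counts for Gata3.

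Elf5 (chr2:103411688-103450989) and Tfcp2l1 (chr1:118627945-118685168) were not called. Elf5 was at 20, 16.6, 25.7 and 30.6 CPM in the controls and at 13, 7.38, 33 and 9.68 CPM in the knockouts. As with Fxyd4, the other 3 knockouts lay below every control and knockout replicate 3 above every control, so the log2 fold change was −0.55 (SE 0.43, edgeR adjusted p 0.383) with and −1.19 (edgeR adjusted p 0.0231) without that library. Tfcp2l1 was at 131, 146, 206 and 242 CPM in the controls and at 142, 85.5, 190 and 118 CPM in the knockouts. These ranges overlapped broadly, and the log2 fold change was −0.43 (SE 0.26, edgeR adjusted p 0.258).

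Of 19 regulators and markers of the ureteric bud and collecting duct lineage, 1 was called higher and 1 lower. The shares over all genes tested were 6.61% higher and 8.27% lower, 14.9% in all. The median log2 fold change of the list was −0.11. Ret, the receptor that drives branching at the tips of the ureteric bud, rose from 101 ± 38 to 178 ± 21.2 CPM, with every knockout above every control (log2 fold change 0.82, SE 0.23, edgeR adjusted p 0.0437). Lhx1, a homeodomain factor of the early nephron and ureteric bud, fell from 57.3 ± 8.1 to 34.7 ± 5.44 CPM (−0.73, SE 0.13, edgeR adjusted p 0.0173). The most abundant genes of the list were Cdh16, the kidney cadherin (493 ± 169 and 294 ± 119 CPM), and Calb1, a calcium-binding protein (482 ± 52.9 and 574 ± 85.6 CPM), and neither was called (edgeR adjusted p 0.124 and 0.168). In fits that left out 1 library the calls in this list ran from 0 to 9, with 7 without control replicate 2, 9 without knockout replicate 3 and at most 1 in the others.

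Npnt encodes nephronectin, a basement membrane ligand of integrin alpha 8 beta 1 that the ureteric bud presents to the mesenchyme (chr3:132881745-132950291, minus strand). It was the most abundant member, at 408, 328, 512 and 608 CPM in the controls and 277, 259, 455 and 278 CPM in the knockouts. All knockouts but replicate 3 lay below every control, and the log2 fold change of −0.55 (SE 0.23, edgeR adjusted p 0.122) was not called. It was called without control replicate 2 (−0.69, edgeR adjusted p 0.0326) and without knockout replicate 3 (−0.75, edgeR adjusted p 0.0334). Among 7 genes listed with nephronectin, which include its integrin, basement membrane genes and Gdnf, 1 was called higher, and this was Gdnf. The share called over all genes tested was 14.9%, with 6.61% higher. The median log2 fold change of the 7 genes was 0.17. Gdnf, the growth factor of the mesenchyme that activates Ret, rose from 61.5 ± 13.1 to 94.5 ± 15.9 CPM (0.62, SE 0.17, edgeR adjusted p 0.039), with every knockout above every control. Its call was kept without control replicate 2 (0.0124) or knockout replicate 3 (0.0414) and lost in the 6 other fits that left out a library (edgeR adjusted p 0.0620 to 0.113). The integrin gene Itga8 was at 127 ± 11.6 and 153 ± 17.7 CPM (0.27, SE 0.10, edgeR adjusted p 0.086), and Itgb1 at 709 ± 19.2 and 703 ± 19.5 CPM (−0.01). Frem2, a basement membrane protein, was at 176 ± 8.71 and 179 ± 5.62 CPM (0.03).

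**Figure D5:**
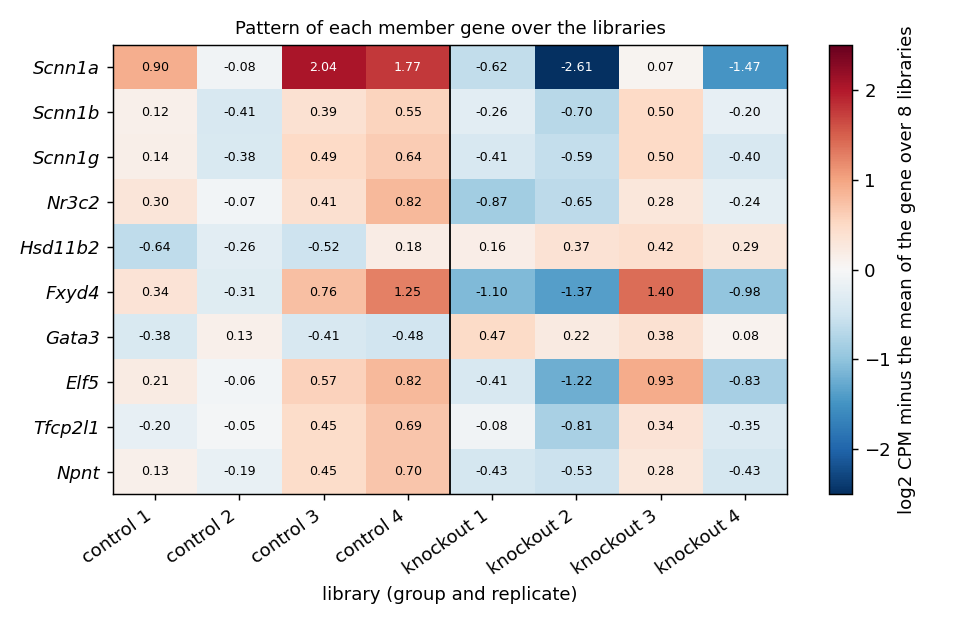
Log2 CPM of each member minus its mean over the 8 libraries (colour and printed value), by library. Hsd11b2 and Gata3 run against the other members, and Fxyd4 and Elf5 are highest in knockout replicate 3.

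Likeness of patterns across libraries was measured as the mean absolute difference of log2 CPM over the 8 libraries after centring each gene on its own mean (a description, with genotype and library makeup shared by all points). Scnn1g was nearest to Npnt (0.08) and Scnn1b (0.09), and Scnn1a was 0.77 or more from every other member. Hsd11b2 and Gata3 differed by 0.27. The member nearest to Fxyd4 was Elf5 (0.31), whereas Elf5 was nearer to Scnn1g and Npnt (0.27 each) and as near to Tfcp2l1 (0.31). Knockout replicate 3 was the highest knockout for 9 of the 10 members and exceeded all controls for 4 of them, Hsd11b2, Fxyd4, Gata3 and Elf5. Control replicate 2 was the lowest control for 7 members.

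Among 14150 named genes whose mean reached 1 CPM, the nearest to both Scnn1g (0.07) and Npnt (0.03) was Col4a2, a basement membrane collagen chain. For Fxyd4 and Elf5 the nearest were the collagen genes Col15a1 (0.20) and Col23a1 (0.14). For Hsd11b2 it was Fyb (0.10) and for Gata3 Nav1 (0.07), while Cdkn1c, Rcan2 and Sox6 were nearest to Scnn1b (0.08), Nr3c2 (0.10) and Tfcp2l1 (0.08). The mean of the 3 channel subunits was matched most closely by Dock8 (0.09), Tinagl1 (0.11), Adgrg1 (0.12), Plekhd1 (0.12) and Ly6a (0.13).

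Markers of other kidney cell types differed between the genotypes to unequal extents, and their part in these results was not tested. Over all genes tested, 8.27% were called lower and 6.61% higher. The 12 intercalated cell markers, of the other cell type of the collecting duct, summed to 106 to 345 CPM in the controls and 30.6 to 174 CPM in the knockouts, and 2 were called, both lower (6 by DESeq2 and 11 by limma-voom in either direction). The most abundant, Rhcg, was not called (−1.20, edgeR adjusted p 0.0998). Distal convoluted and connecting tubule markers summed to 317 to 821 CPM and 139 to 229 CPM, with 6 of 9 tested genes called lower, S100g (−2.44) being the most abundant. Proximal tubule markers summed to 425 to 1775 CPM and 43.9 to 241 CPM, with 11 of 12 called lower, and those of the thick ascending limb to 308 to 1334 CPM and 32.2 to 409 CPM, with 5 of 8 called lower. The most abundant of these were Lrp2 (−2.24, called) and Slc12a1 (−2.42, edgeR adjusted p 0.131). Podocyte markers, at 429 to 665 CPM and 302 to 388 CPM, had 3 of 8 called lower. Urothelial markers overlapped, at 99.9 to 261 CPM and 115 to 199 CPM, with 0 of 8 called by edgeR, 1 of 8 at an unadjusted p under 0.05, 1 called by DESeq2 and 4 by limma-voom. Upk1b was the most abundant of them. Nephron progenitor markers, at 457 to 701 CPM and 506 to 711 CPM, had 2 of 8 called lower, Cited1 (−1.64) and Meox1 (−1.45), while Wt1, the most abundant gene of this list and of the podocyte list, changed by 0.04 and was not called. Germline markers, led by Sycp3, summed to 27.2 CPM in control replicate 2 and at most 3.35 CPM in any other library.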

How the data were processed

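The authors deposited read counts per gene, as whole numbers without normalization, and exon lengths in bases, per the file headers. The submitters' processing notes name Trimmomatic 0.36, STAR 2.5.2b, featureCounts (Subread 1.5.2), DESeq2 and GRCm38. The settings for strand and for reads matching several genes are not given in the sources used here. Symbols came from GENCODE M21 (49056 of 49315 IDs). Members and lists were chosen with earlier results of these data known.

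Counts were scaled by TMM, filtered with filterByExpr and tested by edgeR 4.0.16 (R 4.3.3, glmQLFTest) without covariates. P values were adjusted by Benjamini-Hochberg over 18485 genes. Adjusted p values are from this test unless another is named. Each SE of a log2 fold change is the absolute fold change divided by the square root of the F statistic of this test. CPM use TMM library sizes, and 1 count was worth 0.035 to 0.0512 CPM before scaling. Within-library ratios used counts plus 0.5 and exact permutation over 70 assignments. The edgeR step was tested on simulated data.

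Named genes are the members, Kdm1a, of each pathway list the called genes (up to 4, by smallest adjusted p) and the 2 most abundant, of each marker list the sum and the most abundant gene, the nearest patterns and genes overlapping a member. Sgk1, Nedd4l, Itga8, Slc18a1, Cd3e, Cd3g, Cd3d, Cited1 and Meox1 were added after their values were seen. Some genes that the rule names are not reported here. Alternatives were DESeq2 1.42.0, limma-voom (limma 3.58.1), other scaling, filters, covariates, the replicate block, the table of the whole series and libraries left out. Same-numbered libraries deviated from their group means with correlations of −0.11, 0.33, 0.23 and −0.06. The same-numbered knockout had the highest correlation for control replicates 2 and 3 but not for 1 and 4. These values cannot settle whether the numbers pair the samples.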

Additional observations from a re-analysis of the deposited data

Results flagged for a closer look

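Among 30 groups of 4 libraries examined (10 members, Kdm1a and 4 ratios in each genotype), 4 held a library far from the other 3, where chance flags about 1 group in 20. The groups come from the same libraries and from related genes, so they are not independent. The count of 4 therefore cannot be weighed against that rate. Knockout replicate 3 stood above the other knockouts for Fxyd4, at 63.6 CPM, for Scnn1g, at 53.7 CPM, and for Npnt, at 455 CPM. Control replicate 2 stood above the other controls for Gata3, at 94.7 CPM.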

How the results depend on the processing

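Over all genes, the 2751 calls became 4468 with DESeq2 and its own gene filter (32504 genes entered, tool and filter changing together), 8302 with limma-voom and sample weights, 1200 with the adrenal covariate and 7903 without control replicate 2 and knockout replicate 3, which stood apart from their groups in tubule markers. Leaving out 1 library gave 153 (knockout replicate 4) to 7084 (control replicate 2), with 3192 without knockout replicate 3 and 374 to 695 for the other libraries. Of the members, 3 were called in the reported fit, 9 with limma-voom (all but Tfcp2l1), 9 without both of those libraries (all but Hsd11b2), 1 with the Y-linked covariate (Gata3), 1 within the 5 libraries with Y-linked transcripts (Gata3), and 0 with the adrenal covariate in edgeR, where 3 had an unadjusted p under 0.05. Leaving out 1 library gave 0 to 5. All 10 members kept their direction in the 19 alternatives. Whether the replicate numbers pair the samples is not known. With the replicate block 4 members were called, the addition being Npnt (−0.55, edgeR adjusted p 0.0478), and 3229 genes in all. In that edgeR fit 10 members had an unadjusted p under 0.05, against 5 in the reported fit. Kdm1a was −0.28 within the 5 libraries with Y-linked transcripts (edgeR adjusted p 0.0562) and −0.29 to −0.24 when 1 library was left out.

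The log2 differences of the ratios Scnn1b to Scnn1a, Scnn1g to Scnn1a and Hsd11b2 to Nr3c2 were 2.40, 2.39 and 1.43 within the 5 libraries with Y-linked transcripts, 2.40, 2.26 and 1.71 without control replicate 2 and knockout replicate 3, and 1.99, 1.88 and 1.37 with the replicate block. These designs cannot reach an exact permutation p under 0.1, 0.1 and 0.125. Leaving out 1 library gave 1.68 to 2.22, 1.51 to 2.12, 1.25 to 1.55 and, for Scnn1g to Scnn1b, −0.17 to −0.07. With 5 added to each count no call changed. Nr3c2, with 60 to 187 counts per library, is the member that counting error limits most.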
